A study of Mus musculus with 4 samples.

Results

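The genes described here are 30 mouse genes of the amino acid response, of amino acid supply and of tRNA charging, chosen by symbol from the 32285 genes listed for 2 single-cell RNA libraries. They fall into 7 stress regulators (Atf4, Ddit3, Trib3, Chac1, Sesn2, Nupr1 and Ppp1r15a), 12 genes of amino acid supply (Asns, Psat1, Phgdh, Psph, Shmt2, Mthfd2, Aldh18a1, Pycr1, Slc7a11, Slc3a2, Slc7a5 and Slc7a1) and 11 cytosolic tRNA synthetase genes (Aars, Cars, Eprs, Gars, Iars, Lars, Nars, Sars, Tars, Wars and Yars). All 30 symbols were found. The libraries, called Diff_MK and MK in the labels, were made from the mouse keratinocyte line MK, grown in E low medium with 15% fetal bovine serum, and every sample carries the treatment label Dox. Cells labelled with lineage tags, which are short heritable barcode sequences, were sorted as GFP positive and loaded on 10x Genomics 3′ v3 chemistry, with a tag library beside each RNA library. The labels do not spell out Diff, and they give the same culture text to both. There was 1 RNA library for Diff_MK and 1 for MK, so no difference between them could be set against replicates, no p-value was computed, and every interval below is a 95% interval for counting error only.

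When an amino acid is short, uncharged tRNA activates a kinase that phosphorylates the initiation factor eIF2. General translation then slows, while the mRNA of the transcription factor ATF4 is translated more. ATF4, paired with C/EBP proteins, binds a composite element in target genes that include amino acid transporters, biosynthetic enzymes and many tRNA synthetases, and other stresses reach the same factor through other eIF2 kinases. In epidermis, dividing basal keratinocytes make their own proteins at a high rate, and differentiating cells leave the cycle and turn to keratins and envelope proteins.

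The core of that composite element, TGATGNAA, was searched on both strands in RefSeq promoter windows (GRCm38.p6, 250 bases before to 50 bases after each start). It was present in 11 of the 25 member genes with a window (44%), against 4.51% of 27025 genes: 3 of 7 stress regulators (Trib3, Chac1, Nupr1), 3 of 11 supply genes (Asns, Pycr1, Slc7a11) and 5 of 7 synthetases (Aars, Gars, Iars, Tars, Yars). Slc7a5, Cars, Lars, Nars and Wars had no window. The cyclic AMP element TGACGTCA was present in 1 of the 25, Ppp1r15a (4%), against 2.03% of all genes. The following windows, 5′ to 3′ along each gene and credited to RefSeq, are shown because they give the element, in capitals, in a glutathione-degrading stress gene, in the asparagine synthetase gene, in the cystine transporter gene and in a synthetase gene.
Chac1: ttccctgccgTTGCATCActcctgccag
Asns: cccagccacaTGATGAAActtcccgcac
Slc7a11: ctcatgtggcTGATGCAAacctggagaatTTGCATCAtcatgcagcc
Gars: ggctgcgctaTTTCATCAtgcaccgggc
The Chac1 window is chr2:119351039-119351066 on the plus strand, with the element at -193 from the RefSeq start. The Asns window is chr6:7693215-7693242 on the minus strand, with the element at -23, and it lies in the first exon and 5′ untranslated region of an Asns transcript that GENCODE vM21 starts further upstream. The Slc7a11 window is chr3:50443643-50443689 on the minus strand, and its element occurs in both orientations, at -66 and -47. The Gars window is chr6:55037961-55037988 on the plus strand, with the element at -30. No GENCODE gene overlaps the Chac1, Slc7a11 and Gars windows. A match is a string of letters and does not show binding.

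After cells with under 1000 genes or over 15% mitochondrial UMIs (unique molecular identifiers, each counting 1 captured RNA molecule) were left out, 6912 Diff_MK cells and 7175 MK cells remained, with 103885150 and 115181759 UMIs in all and a median of 14223.5 and 15599 UMIs per cell. Among the kept cells 9 cell barcodes occurred in both libraries. All 8 keratinocyte markers were measured, with summed levels of 19456 and 10215 CPM (counts of UMIs scaled to a common library total), while the 6 melanocyte, 6 fibroblast, 6 immune and 6 endothelial markers each summed to at most 5.26 CPM in Diff_MK cells and 6.42 CPM in MK cells. Of these lists, 2, 4, 3 and 1 markers were at 0 in Diff_MK cells, and 2, 3, 0 and 0 in MK cells.

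Most of the 30 genes were somewhat lower in the Diff_MK library, and a few of them by more than most other genes. Summed CPM over the 30 genes was 3284 (3273 to 3295) in Diff_MK cells and 3929 (3917 to 3940) in MK cells, a ratio of 0.836. The ratio was 0.791 (0.781 to 0.801) for the stress regulators, 0.842 (0.836 to 0.848) for amino acid supply and 0.842 (0.836 to 0.847) for the synthetases. In number, 24 of the 30 were lower and 6 higher in Diff_MK cells, where 69.2% of 9282 measured genes (those reaching 5 CPM in either library) were lower and 30.8% higher, so the direction alone was common to the transcriptome. The median gene stood at a log2 ratio of -0.16 under scaling by total UMIs, and the medians of the classes were -0.19 for stress regulators, -0.28 for supply and -0.19 for synthetases. A change of at least 1.5-fold was met by 7 of the 30 in the lower direction (Ddit3, Trib3, Nupr1, Shmt2, Slc7a11, Aars and Wars), against 7.57% of the 7736 genes at 10 CPM or more, and by 1 in the higher direction (Ppp1r15a), against 4.51%. At 2-fold, 1 was lower (Slc7a11, against 0.776% of genes) and 0 were higher (against 1.82%). With the median shift removed, 4 of the 7 (Ddit3, Trib3, Nupr1 and Slc7a11) still passed 1.5-fold, where 3.07% of all genes did, and Psat1, Aldh18a1, Slc3a2, Cars, Iars and Sars, all with log2 ratios between -0.14 and -0.019, changed direction.

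**Figure D1:**
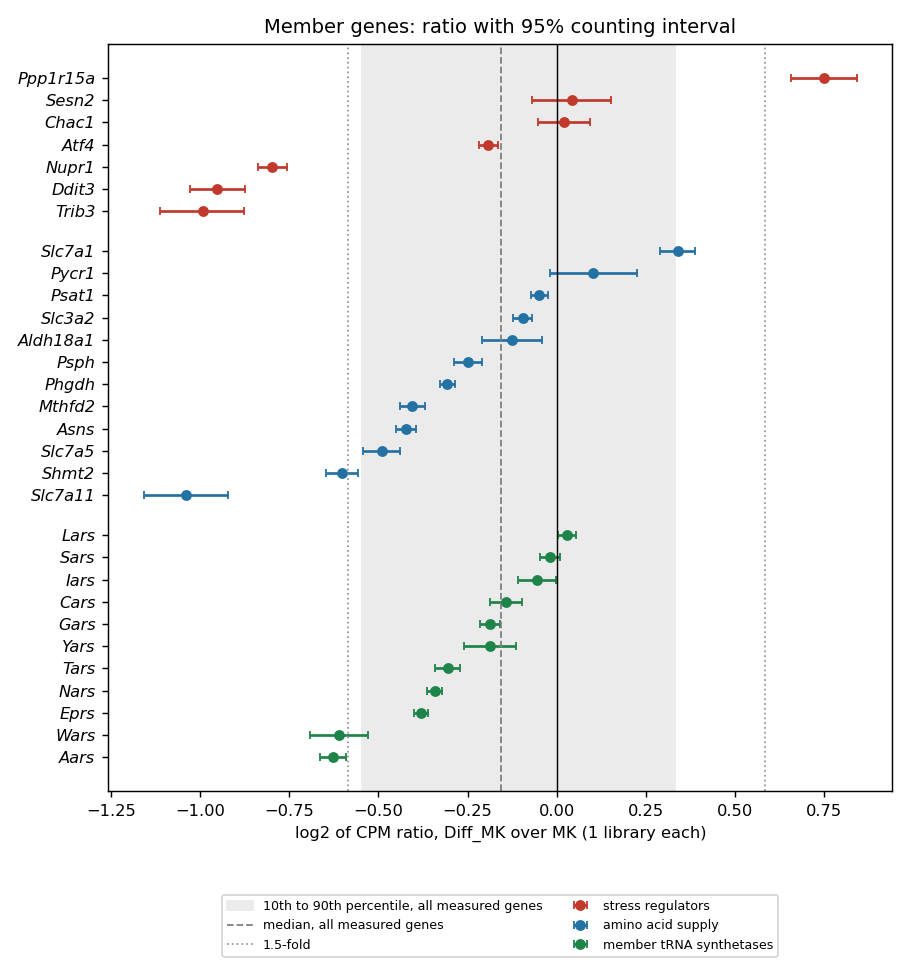
The log2 ratio of CPM, Diff_MK over MK, is plotted on the horizontal axis for each of the 30 genes with its 95% counting interval, 1 library each, and the shaded band runs from the 10th to the 90th percentile of the 9282 measured genes (-0.55 to 0.33). Slc7a11, Trib3, Ddit3 and Nupr1 lie farthest to the left, and Ppp1r15a farthest to the right.

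The stress regulators did not move as a block. Atf4, the transcription factor at the head of the response, had 210.0 CPM (207 to 213) in Diff_MK cells and 239.8 CPM (237 to 243) in MK cells, a log2 ratio of -0.19 close to that of the median gene. Ddit3, which encodes the pro-apoptotic factor CHOP, had 19.3 CPM (18.5 to 20.2) in Diff_MK cells, against 37.3 CPM (36.2 to 38.4) in MK cells. It was 1.93-fold lower (1.83 to 2.04). Trib3, a pseudokinase induced by ATF4 that dampens the response, had 8.20 CPM in Diff_MK cells and 16.3 CPM in MK cells and was 1.99-fold lower (1.83 to 2.16). Nupr1, a small nuclear protein induced by stress, had 70.6 CPM and 123 CPM in the Diff_MK and MK libraries and was 1.74-fold lower (1.69 to 1.79). Chac1, which degrades glutathione, had 27.4 CPM in Diff_MK cells and 27.0 CPM in MK cells, and its ratio of 1.01 (0.964 to 1.07) included 1. Sesn2, a leucine sensor that restrains mTORC1, had 12.3 CPM and 11.9 CPM, a ratio of 1.03 (0.953 to 1.11) that also included 1. Ppp1r15a went the other way: this regulatory subunit, which directs a phosphatase to eIF2 and so ends the response, had 22.9 CPM (22.0 to 23.9) in Diff_MK cells, against 13.6 CPM (13.0 to 14.3) in MK cells, a ratio of 1.68 (1.58 to 1.79). Of the 3 stress regulators with the element in their window, Trib3 and Nupr1 were lower and the interval of Chac1 included 1. The 3′ end of Ddit3 overlaps Mars on the opposite strand, and another entry with the symbol Ddit3 held 0 UMIs in both libraries.

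Among the supply genes the largest difference was that of a transporter. Slc7a11, the cystine and glutamate exchanger, had 8.15 CPM (7.61 to 8.72) in Diff_MK cells, against 16.8 CPM in MK cells, 2.06-fold lower (1.89 to 2.23). Slc7a5, which imports leucine and other large neutral amino acids, had 46.6 CPM in Diff_MK cells and 65.5 CPM in MK cells and was 1.41-fold lower (1.36 to 1.46). Slc3a2, the heavy chain that both of them need at the membrane, had 208 CPM and 223 CPM, a log2 ratio of -0.10. Slc7a1, which carries arginine and lysine, was the exception: it had 69.7 CPM in Diff_MK cells and 55.1 CPM in MK cells, a ratio of 1.26 (1.22 to 1.31). The transporters therefore lay on both sides of the median gene.

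Asparagine, serine and one-carbon genes were lower to different degrees. Asns, which makes asparagine, had 169 CPM (166 to 171) in Diff_MK cells and 226 CPM (223 to 229) in MK cells, 1.34-fold lower. Within the serine pathway Phgdh, its entry enzyme, had 318 CPM and 393 CPM, Psph, its last enzyme, had 86.7 CPM and 103 CPM, and Psat1, the step between them, had 234 CPM and 242 CPM, with log2 ratios of -0.31, -0.25 and -0.048. The mitochondrial enzymes that take serine into one-carbon units were lower by more. Shmt2 had 59.8 CPM in Diff_MK cells and 90.8 CPM in MK cells, 1.52-fold lower (1.47 to 1.57), and Mthfd2 had 105 CPM and 139 CPM, 1.32-fold lower (1.29 to 1.36). Of the proline enzymes, Aldh18a1 had 20.2 CPM in Diff_MK cells and 22.0 CPM in MK cells, and Pycr1 had 10.4 CPM and 9.65 CPM, with log2 ratios of -0.12 and 0.10.

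The 11 synthetases, each of which charges the tRNA of its amino acid, spanned log2 ratios from -0.63 to 0.029. Aars, for alanine, had 94.4 CPM (92.5 to 96.3) in Diff_MK cells and 146 CPM in MK cells, 1.54-fold lower (1.51 to 1.58). Wars, for tryptophan, had 19.1 CPM and 29.2 CPM, 1.53-fold lower (1.44 to 1.61). Eprs, which charges both glutamate and proline tRNAs, had 322 CPM and 419 CPM, Nars, for asparagine, had 300.1 CPM and 380.3 CPM, and Tars, for threonine, had 104 CPM and 128 CPM, with log2 ratios of -0.38, -0.34 and -0.31. Gars, for glycine, had 170.2 CPM in Diff_MK cells and 194 CPM in MK cells, Yars, for tyrosine, had 26.2 CPM and 29.9 CPM, and Cars, for cysteine, had 68.7 CPM and 75.8 CPM. Their log2 ratios of -0.19, -0.19 and -0.14 lay near that of the median gene. Iars, for isoleucine, had 51.1 CPM in Diff_MK cells and 53.1 CPM in MK cells, Sars, for serine, had 181 CPM and 183 CPM, and Lars, for leucine, had 241 CPM and 236 CPM, with log2 ratios of -0.055, -0.019 and 0.029. The 5 synthetases with the element in their window had log2 ratios from -0.63 (Aars) to -0.055 (Iars).

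Related genes outside the 30 were also mostly lower in Diff_MK cells, as were 69.2% of all measured genes. Of 12 other genes of cytosolic tRNA charging, a list that includes Aimp1, itself not a synthetase, 10 were lower in Diff_MK cells. Their median log2 ratio was -0.28, and the lowest ratio was that of Dars, for aspartate, with 70.4 CPM in Diff_MK cells and 113 CPM in MK cells. Of 14 measured mitochondrial synthetase genes 12 were lower (median -0.33), and of 15 genes of eIF2, eIF2B and the eIF2 kinases 14 were lower (median -0.24). The initiation factor genes Eif2s1 and Eif2s2 had log2 ratios of -0.55 and -0.38. The ATF6 and XBP1 branch of the unfolded protein response, a sister pathway, had 16 of 19 measured genes lower (median -0.30). Of 18 measured other genes linked to ATF4, 12 were lower, a share near that of all genes (median -0.054). Vldlr, a lipoprotein receptor, had 7.34 CPM in Diff_MK cells and 1.38 CPM in MK cells, and Ddit4, an mTORC1 inhibitor, had 46.9 CPM and 17.9 CPM, ratios of 5.31 (4.47 to 6.34) and 2.62 (2.49 to 2.76).

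Other lists moved with the library too. All 10 S phase markers and all 10 G2/M phase markers were lower in Diff_MK cells, with medians of -0.75 and -0.48. Of 15 early genes associated with cell dissociation 12 were higher (median 0.66), among them Fosb with 37.9 CPM in Diff_MK cells and 9.20 CPM in MK cells and Jun with 153 CPM and 37.7 CPM. The part of cycling or of handling in the ratios of the 30 genes was not tested.

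Cells were next grouped into clusters from genes other than the 30 and the related lists, so that the levels of the 30 could be read in each group. Of 13 clusters, 12 held 50 or more cells, and 64.6% of cells lay in clusters with at least 90% of their cells from 1 library. Cluster 0 was S phase-like (10 of 10 S phase markers at least 1.5-fold over other cells) and cluster 2 was G2/M phase-like (10 of 10 markers), with 38 and 32 Diff_MK cells against 2006 and 1828 MK cells. Cluster 3, led by Krt15, Clu and Lgals7, held 1858 Diff_MK cells and 1 MK cell. Cluster 8, led by Serpinb11, Dsg1b and Krt78, and cluster 10, led by Krt7, Edn2 and Ctla2a, held 473 and 76 Diff_MK cells and 0 MK cells. Cluster 10 was also G2/M phase-like (10 of 10 markers). Clusters 4 and 7 were mostly Diff_MK cells too, with 1574 and 1090 Diff_MK cells against 124 and 2 MK cells.

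The supply and synthetase sums were highest in cluster 2 and low in clusters 3, 8 and 10, but not in clusters 4 and 7. Summed supply CPM was 1885 in cluster 2 and 1768 in cluster 0, against 801 in cluster 3, 797 in cluster 8 and 1054 in cluster 10. It was 1540 in cluster 4 and 1680 in cluster 7. Its lowest value, 793, was in cluster 9, which held 145 Diff_MK cells and 111 MK cells. Summed synthetase CPM was 2134 in cluster 2 and 1972 in cluster 0, against 960.3 in cluster 3, 1195 in cluster 8 and 952 in cluster 10. In clusters 4 and 7 it was 1831 and 1814. In number, 22 of the 30 genes had their lowest level of the 12 clusters in cluster 3, 8 or 10, as had 57.7% of all genes, and 13 had their highest level in cluster 2, as had 9.77%. Mthfd2 had 22.0 CPM in cluster 3 and 173 CPM in cluster 2, Shmt2 had 17.6 CPM and 108 CPM, and Slc7a11 had 0.88 CPM and 19.0 CPM. Sars was the most even of the synthetases, with 155 CPM to 238 CPM over the 12 clusters, a 1.53-fold range. Phgdh ranged from 57.9 CPM in cluster 8 to 592 CPM in cluster 11, which was left unnamed (61 cells, median depth 3527 UMIs, median mitochondrial share 0.0934%).

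**Figure D2:**
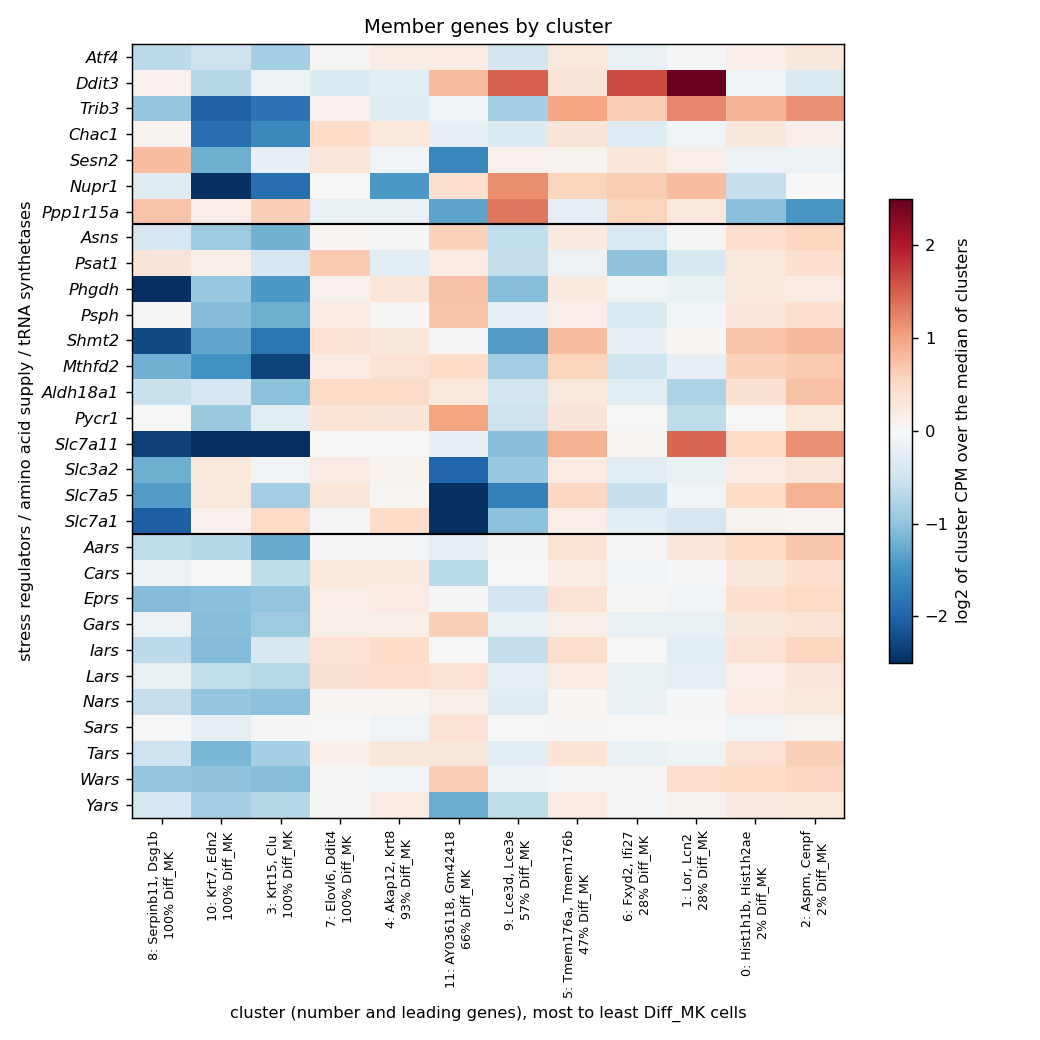
Colour gives the log2 of each gene's CPM in a cluster over its median across the 12 clusters of 50 or more cells, with CPM raised to at least 0.5, genes in rows by class and clusters in columns from the largest to the smallest share of Diff_MK cells. Clusters 3, 8 and 10, made up of Diff_MK cells but for 1 MK cell, are blue for most genes, and cluster 2 is red for most supply and synthetase genes.

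The stress regulators had another distribution. Their summed level was highest, at 571 CPM, in cluster 1, whose leading genes were Lor, Lcn2 and Tchh (526 Diff_MK cells and 1342 MK cells). It was lowest in cluster 10 at 212 CPM (184 to 243) and the same to that rounding in cluster 3, at 212 CPM (206 to 219). Ddit3 reached 113 CPM in cluster 1 and had 8.07 CPM to 40.7 CPM in the other clusters. In cluster 1 it had 90.04 CPM in Diff_MK cells and 122 CPM in MK cells. That cluster held 7.61% of Diff_MK cells and 39.1% of their Ddit3 UMIs, and 18.7% of MK cells and 59.9% of theirs. Nupr1 was highest at 217 CPM in cluster 9, led by Lce3d, Lce3e and Lce3c, genes of the cornified envelope, and lowest at 15.1 CPM in cluster 10. Ppp1r15a was also highest in cluster 9, at 47.2 CPM, and was lowest in cluster 2, at 6.86 CPM. The other G2/M phase-like cluster, cluster 10, had 21.2 CPM. Chac1 was highest in cluster 7, led by Elovl6, Ddit4 and Idi1, at 35.8 CPM, and Atf4 in cluster 2, at 269 CPM.

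**Figure D3:**
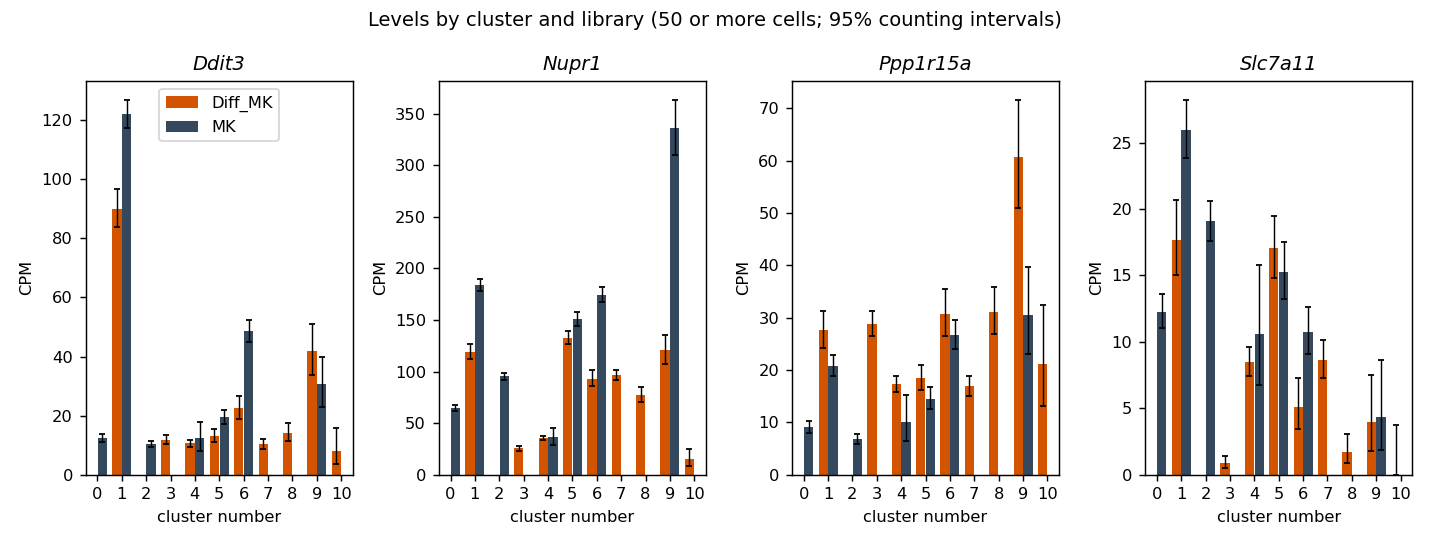
Bars give CPM with 95% counting intervals for Ddit3, Nupr1, Ppp1r15a and Slc7a11 in each cluster with 50 or more cells of a library, Diff_MK left of MK. Ddit3 stands out in cluster 1 of both libraries (90.04 and 122 CPM), and Nupr1 is lower in Diff_MK cells in each cluster where both have a bar.

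The class medians lay nearer 0 when clusters 3, 8 and 10 were left out, as did that of all genes. Clusters 4 and 7, also mostly Diff_MK cells, were kept in. Without cluster 3, the class medians were -0.063 for stress regulators, -0.10 for supply and -0.066 for synthetases, and that of all genes was -0.082. Without clusters 3, 8 and 10 they were -0.011, -0.041 and -0.022, and that of all genes was -0.049. Trib3, Ddit3 and Slc7a11 were then still lower by 1.5-fold or more, where 2.0% of all genes were, and Ppp1r15a was still higher. Without cluster 1, Ddit3 had a log2 ratio of -0.51 and no longer passed 1.5-fold. These leave-outs were chosen after the cluster levels were seen. Clusters 3, 8 and 10 held Diff_MK cells but for 1 MK cell, and their supply and synthetase sums were low. A rise of the ratios without them therefore followed from the choice.

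In the 5 clusters with 50 or more cells of both libraries (1, 4, 5, 6 and 9), the class sums in Diff_MK cells were 0.728 to 1.12 times those in MK cells for stress regulators, 0.896 to 1.15 times for supply and 0.889 to 1.05 times for synthetases. Each class sum was lower in Diff_MK cells in 3 of these 5. A finer clustering (resolution 1.0) gave 6 such clusters, and supply was there higher in Diff_MK cells in 6 of 6 (1.02 to 1.35, 5 intervals above 1). Synthetases were lower in 2 of these 6 (0.991 to 1.07, 0 intervals below 1 and 3 above). Stress regulators were lower in 4 of them (0.746 to 1.13, 3 intervals below 1 and 1 above). The direction of supply and synthetases within clusters thus depended on the clustering. Nupr1, Phgdh, Aars and Nars were lower in Diff_MK cells in 5 of 5 clusters, a rule met by 4 of the 30 genes and by 18.6% of all genes. Nupr1 had 119 CPM in Diff_MK cells and 184 CPM in MK cells of cluster 1, 93.3 CPM and 174 CPM in cluster 6, and 121 CPM and 336 CPM in cluster 9. In clusters 4 and 5 its levels were closer, 35.4 CPM and 36.7 CPM, and 133 CPM and 151 CPM. Ppp1r15a and Slc7a1 were higher in Diff_MK cells in 5 of 5, a rule met by 2 of the 30 and by 9.81% of all genes. Ppp1r15a had 27.6 CPM in Diff_MK cells and 20.8 CPM in MK cells of cluster 1, 17.4 CPM and 10.2 CPM in cluster 4, and 60.6 CPM and 30.6 CPM in cluster 9. Chac1, whose interval included 1 between the whole libraries, was higher in Diff_MK cells in 4 of the 5, with 32.1 CPM and 21.2 CPM in cluster 4 and 40.4 CPM and 26.0 CPM in cluster 5. Asns was lower in Diff_MK cells in 2 of the 5, with 198 CPM in Diff_MK cells and 189 CPM in MK cells of cluster 1. Ddit3 and Slc7a11 were lower in Diff_MK cells in 4 of the 5 and Trib3 in 3, with 3, 2 and 1 intervals below 1. At the finer clustering Nupr1 and Aars were lower in 6 of 6 clusters and Slc7a1 higher in 6 of 6. Phgdh was lower there in 4 and Nars in 3, and Ppp1r15a and Asns were higher in 5. Ddit3 was lower in 4 of these 6, Slc7a11 in 3 and Trib3 in 2. Their intervals lay below 1 in 3, 1 and 0 clusters and above 1 in 1, 2 and 1. In the finer cluster led by Il33, Mt4 and Cnfn, Ppp1r15a had 29.0 CPM in Diff_MK cells and 32.3 CPM in MK cells, a ratio of 0.897 (0.641 to 1.26). Lce3d, Lce3e and Lce3c there led a cluster of 43 Diff_MK cells and 1 MK cell, with 180 CPM of Ppp1r15a. Whether cluster 9 compares like cells of both libraries was not tested.

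Cells that carried the same lineage tag in both libraries gave a comparison within lineages. Of the kept cells, 4747 Diff_MK cells and 4560 MK cells were assigned to a tag, and 19 tags had 20 or more cells in each library (2279 Diff_MK cells and 1268 MK cells). The summed level was lower in Diff_MK cells in 16 of the 19 tags for stress regulators, with a median ratio of 0.812, and in 18 of 19 for supply and for synthetases, with median ratios of 0.829 and 0.838. Over the tags, summed supply CPM ranged from 1136 to 1548 (median 1326) in Diff_MK cells and from 1440.3 to 1835 (median 1691) in MK cells. Summed synthetase CPM ranged from 1270.1 to 1981 in Diff_MK cells and from 1707 to 2092 in MK cells, so both sums overlapped between libraries. Asns was lower in 19 of 19, with 135 to 224 CPM in Diff_MK cells and 172 to 298 CPM in MK cells. Of the 30 genes, 18 were lower in at least 15 of the 19 tags, against 32.0% of all genes, and 1 was higher (Slc7a1, in 15), against 12.0%. The count of 15 was chosen after its values were seen. These shares of all genes were not matched to the 30 for level, and the part of level was not tested. Nupr1 was lower in 17 tags and Trib3 in 18, and Ppp1r15a was higher in 12. The S phase markers were lower in 19 of 19 and the G2/M phase markers in 17 of 19. Tags are lineages within 1 library each and are not replicates of a condition.

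**Figure D4:**
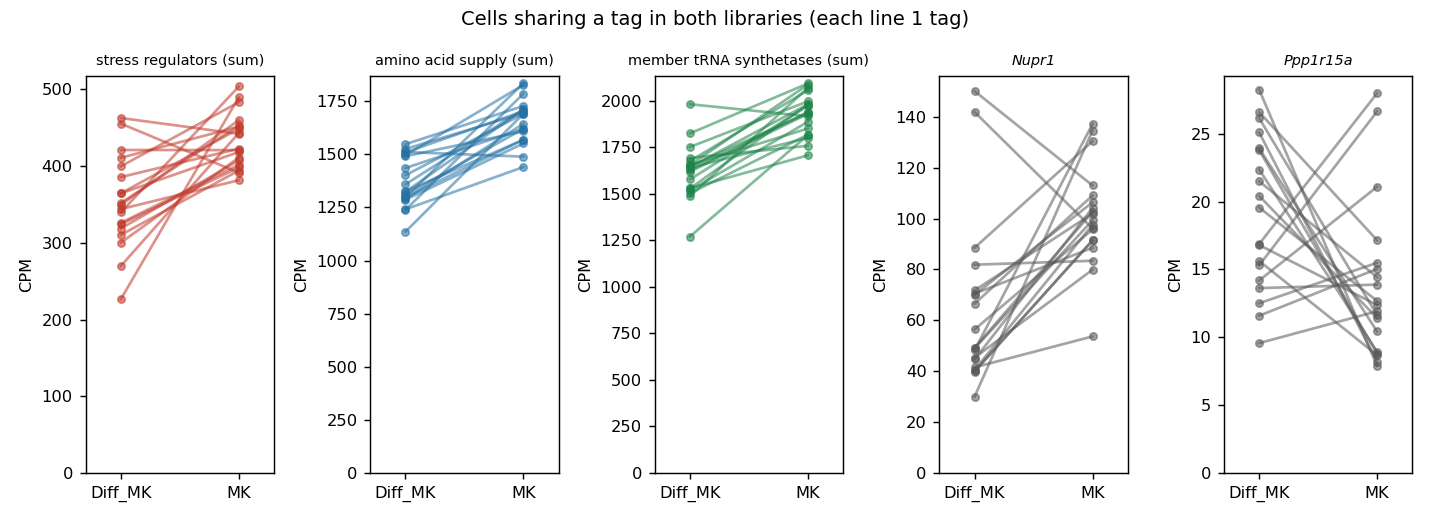
Each line joins the CPM of 1 tag in Diff_MK cells (left) and MK cells (right), for the 3 class sums, Nupr1 and Ppp1r15a, over the 19 tags with 20 or more cells in both libraries. Most lines rise to the right in the class sums and in Nupr1, and 12 of 19 fall to the right in Ppp1r15a.

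Within a library, tags with more supply RNA also had more synthetase RNA. Across 50 Diff_MK tags and 46 MK tags of 20 or more cells, log2 CPM of the supply and synthetase sums had a Pearson r of 0.69 and 0.78. The stress sum followed supply in Diff_MK tags (r = 0.55) and not in MK tags (r = -0.14). With tags of 10 or more cells these were 0.45 and -0.26. Supply and the S phase markers had r of 0.54 in Diff_MK tags and 0.55 in MK tags, and supply and the G2/M phase markers 0.11 and 0.43. The stress sum and the S phase markers had r of 0.20 and -0.38. Tags of a library share that library and its scaling to a fixed total, and tags with few cells carry more counting error. The coefficient of variation over tags was 23.6%, 12.1% and 9.90% for stress, supply and synthetases in Diff_MK cells, and 11.2%, 7.63% and 6.13% in MK cells, where counting alone at the median tag depth gives 2.93% to 5.96% and 3.16% to 6.51%.

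At the level of cells, each cell was thinned to 7500 UMIs, which left out 635 Diff_MK cells and 337 MK cells. At that depth 25 of the 30 genes had a UMI in a smaller share of Diff_MK cells, as had 71.6% of all genes. Ddit3 had a UMI in 10.2% (9.49 to 11) of Diff_MK cells and 15.4% (14.6 to 16.3) of MK cells (17.1% and 24.8% unthinned). Nupr1 had one in 31.3% and 47.4% of cells (44.1% and 66.4% unthinned), and Phgdh in 77.9% and 91.9% (83.7% and 97.2% unthinned). Ppp1r15a had one in 15.8% (14.9 to 16.7) of Diff_MK cells and 9.46% (8.78 to 10.2) of MK cells (26.2% and 17.4% unthinned). No cell type that should lack these genes was found, so the share that free RNA gives could not be measured.

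The variance over cells beyond counting, divided by the squared mean, was larger in Diff_MK cells for 20 of the 23 members at 20 CPM or more in both libraries, as for 68.8% of all such genes. Phgdh had 0.336 in Diff_MK cells and 0.0989 in MK cells, and Shmt2 had 0.532 and 0.205. Sars, one of the exceptions, had 0.0601 and 0.0950. Chac1 and Nupr1 lay above the 90th percentile of all such genes in both libraries, at 2.14 and 1.86 in Diff_MK cells and 1.196 and 2.0 in MK cells, where the percentile was 0.576 and 0.416. With Mthfd2 in Diff_MK cells (0.648), that made 3 members in Diff_MK cells and 2 in MK cells, against 10% of genes by definition. The 5% of cells with most Nupr1 held 36.3% of its UMIs in Diff_MK cells and 31.4% in MK cells.

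Cells with a UMI of Trib3 or Chac1 had more RNA of the other members. In Diff_MK, the 340 thinned cells with a Trib3 UMI had 248 CPM of Asns, against 157 CPM in the 5937 cells without, a ratio of 1.58 (1.46 to 1.72), and in MK the 724 cells with one had 299 CPM, against 219 CPM in the 6114 cells without, a ratio of 1.37 (1.3 to 1.44). All 29 other members had a ratio above 1 in both libraries, as had 70.7% of all genes in Diff_MK and 54.6% in MK. The interval lay above 1 for 23 of 29 in Diff_MK, against 24.4% of all genes, and for 22 of 29 in MK, against 8.93%. It lay below 1 for 0 of 29 in each, against 5.55% and 5.93%. Ddit3 had ratios of 2.17 and 2.90, Slc7a11 of 2.69 and 1.79, and Atf4 of 1.51 and 1.33. Summed supply had ratios of 1.41 and 1.254 and summed synthetases of 1.33 and 1.16 in Diff_MK and MK cells. Chac1 gave a similar picture with 966 Diff_MK cells and 1129 MK cells: the interval lay above 1 for 25 of 29 members in each library, against 30.9% and 7.29% of all genes, and below 1 for 0 of 29, against 6.98% and 5.74%. All 29 ratios were above 1, against 72.5% and 53.1% of all genes, with Asns at 1.53 and 1.27 and Mthfd2 at 1.89 and 1.44. The S and G2/M phase marker sums had ratios of 1.35 and 1.37 in Diff_MK cells with a Trib3 UMI and 0.942 and 1.05 in MK cells, and of 1.33 and 1.39, and 0.997 and 1.02, in cells with a Chac1 UMI, and their part was not tested. Within clusters, Asns was higher in cells with a Chac1 UMI in 6 of 6 Diff_MK clusters (1.16 to 1.54) and 5 of 5 MK clusters (1.16 to 1.41), and in cells with a Trib3 UMI in 4 of 4 Diff_MK clusters (1.04 to 1.40, 2 of the intervals above 1) and 5 of 5 MK clusters (1.2 to 1.76, 5 intervals above 1). Ddit3 in cells with a Trib3 UMI was less even. Its interval lay above 1 in 1 of 4 Diff_MK clusters (ratios 0.375 to 1.81) and 3 of 5 MK clusters (0.936 to 3.56). Members other than Asns, Ddit3 and Chac1 were not compared within clusters. Trib3 and Chac1 had 2.29 CPM and 8.58 CPM in cluster 3, where the class sums were also low. The shares of all genes were not matched to the members for level, and the part of clusters and level in the counts of 29 was not tested.

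Cells with a UMI of Ddit3 or Ppp1r15a showed another pattern. In cells with a Ddit3 UMI (642 Diff_MK cells and 1053 MK cells), summed supply had ratios of 1.02 (0.996 to 1.05) in Diff_MK and 0.911 (0.893 to 0.929) in MK, while Nupr1 had 1.62 and 1.76. Intervals above 1 were found for 12 of 29 members in Diff_MK, against 20.6% of all genes, and for 8 of 29 in MK, against 30.5%, and intervals below 1 for 2 and 11, against 8.07% and 21.5%. Ratios above 1 numbered 19 and 13, against 58.6% and 54.3%. In cells with a Ppp1r15a UMI (990 Diff_MK cells and 647 MK cells), summed supply had ratios of 0.916 and 0.907 and summed synthetases of 0.946 and 0.961. Intervals below 1 were found for 11 of 29 members in Diff_MK, against 14.4% of all genes, and for 9 of 29 in MK, against 13.9%. Intervals above 1 were found for 2 and 7, against 7.07% and 21.7%, and ratios above 1 for 7 and 13, against 39.3% and 55.9%. Ddit3 had 32.2 CPM in Diff_MK cells with a Ppp1r15a UMI and 17.7 CPM in those without, and 125 CPM and 30.5 CPM in MK cells. Within clusters the interval of this Ddit3 ratio lay above 1 in cluster 1 of Diff_MK (2.56) and in clusters 1 and 6 of MK (3.02 and 4.26), out of 7 and 5 clusters with enough cells. The G2/M phase markers were lower in cells with a Ppp1r15a UMI, with ratios of 0.678 and 0.774, and the early dissociation genes higher, with 1.09 and 1.31, and their part in these ratios was not tested. The 4 genes used to divide the cells were chosen after their values were seen.

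**Figure D5:**
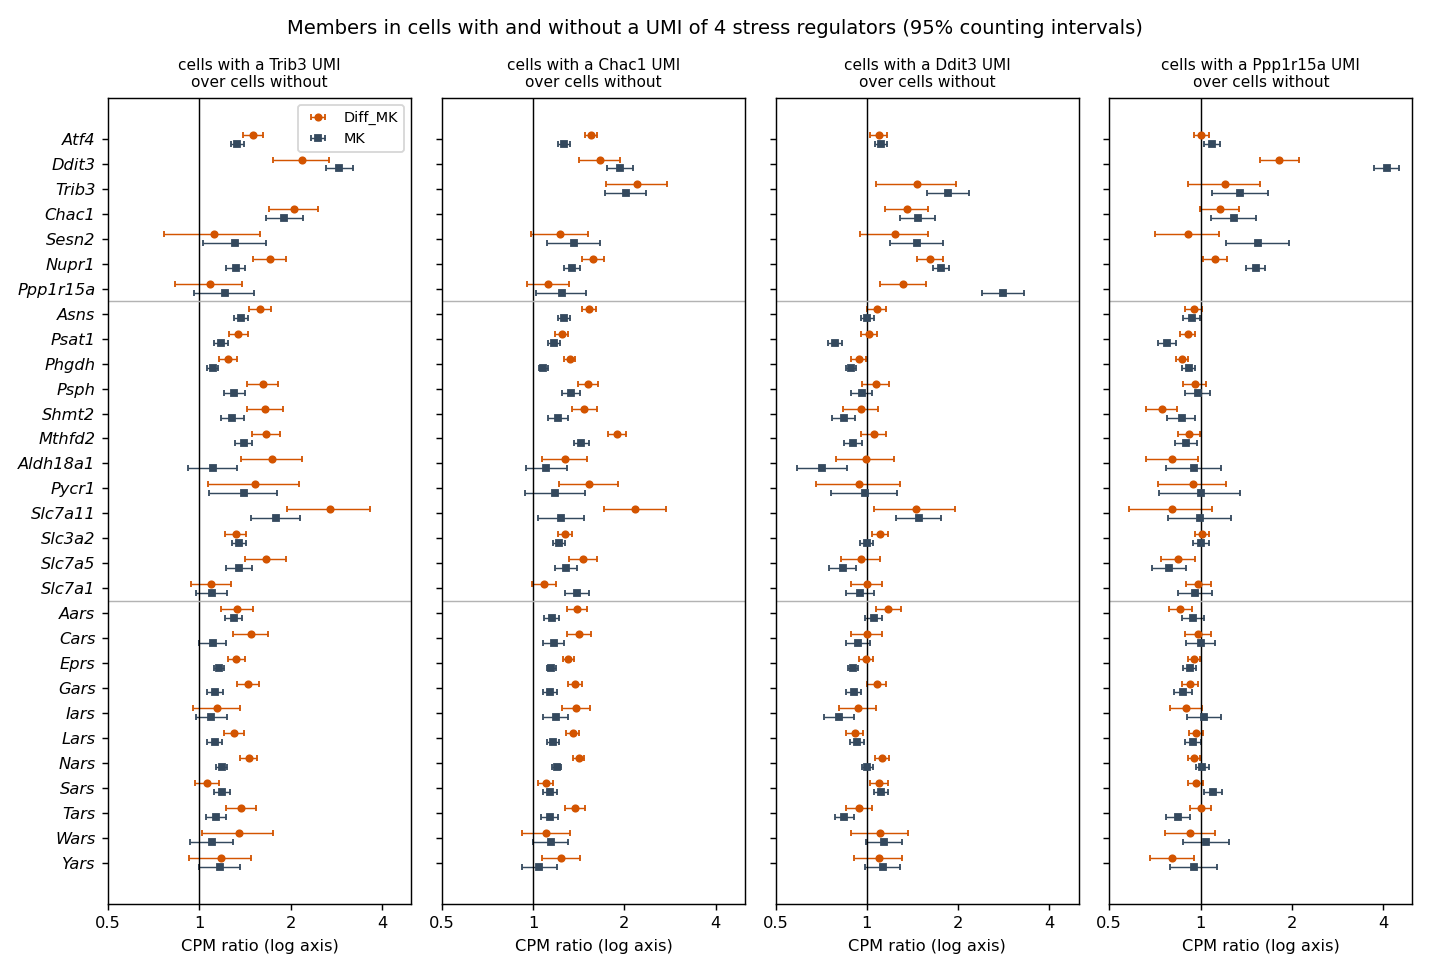
Points give, on a log axis, the CPM ratio of each member in thinned cells with a UMI of Trib3, Chac1, Ddit3 or Ppp1r15a over cells without, with 95% counting intervals, Diff_MK as circles and MK as squares. The 29 members plotted lie right of 1 for Trib3 and for Chac1 in both libraries, while most supply genes and synthetases lie near or left of 1 for Ddit3 in MK, where Slc7a11 at 1.49 is an exception, and for Ppp1r15a.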

How the data were processed

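Single-cell RNA and tag libraries of the groups Diff_MK and MK, 1 of each kind, were grouped by sample title. For RNA, the deposited values are raw UMI counts of each gene in each cell, produced by Cell Ranger 6.1.2 on mm10, per the submitters' processing notes. For tags, the deposited values are raw counts of each tag in each cell, and whether these are UMIs or reads is not given in the sources used here. Strand settings and the treatment of reads shared between overlapping or near-identical genes are not given there either.

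Cells with 1000 or more genes and at most 15% mitochondrial UMIs were kept (7569 Diff_MK and 7780 MK cell barcodes before). UMIs were summed per library and scaled to CPM. Ratios have exact conditional binomial intervals, levels exact Poisson intervals and shares exact Clopper-Pearson intervals, at the 95% level, which cover counting error only. The members and all lists were chosen with earlier results of these data known. Besides the 30, the genes to be named were, per related list, the 2 measured genes with the highest mean CPM and the 2 with the largest log2 ratio in either direction, and the 3 leading genes of each cluster at 50 CPM or more. The count of genes lower in 15 of 19 tags was chosen after its values were seen. Median log2 ratios used genes at 5 CPM or more and a floor of 3 counts per library, and calls used genes at 10 CPM or more.

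Leiden clusters (scanpy 1.11.5, leidenalg 0.10.2, resolution 0.5, 15 neighbours, 30 components, 2000 variable genes) were made without the members and related lists. Doublets were not called, and leaving out the 5% of cells with most UMIs was an alternative. A cell was assigned to the tag with 3 or more counts and at least 2 times the next, and 88 tag pairs (82 identical) matched between libraries. Positions are from GENCODE vM21 and promoter windows from RefSeq. TMM factors came from edgeR 4.0.16. Steps were tested on simulated data.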

Additional observations from a re-analysis of the deposited data

How the results depend on the processing

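Log2 ratios of 22 of the 30 genes kept their direction in all 15 alternatives that gave them, and Chac1, Psat1, Aldh18a1, Slc3a2, Cars, Iars, Lars and Sars changed it in at least 1, between -0.34 and 0.26. Under scaling by the median ratio of genes, the class medians (stress, supply, synthetases) were -0.039, -0.12 and -0.035, and 4 members were at least 1.5-fold lower. TMM gave -0.040, -0.13 and -0.036 with 4, and totals without mitochondrial and ribosomal protein genes gave -0.12, -0.20 and -0.11 with 4. Over all genes, the median-ratio scaling left 528 genes higher and 237 lower and the totals without mitochondrial and ribosomal protein genes 491 and 448, against 349 and 586 as reported. Each cell weighted equally gave -0.27, -0.38 and -0.26. Cells with an assigned tag gave -0.14, -0.22 and -0.15 with 4 lower. The mean over tags gave -0.33 for supply and -0.28 for synthetases, with 0 members higher. A minimum of 50 CPM gave -0.49 for stress regulators, with 0 higher and 3 lower, since fewer members passed it, and 2-fold in place of 1.5-fold gave 0 higher and 1 lower. Leave-outs of clusters gave -0.063, -0.10 and -0.066 with 4 lower (cluster 3), -0.011, -0.041 and -0.022 with 3 lower (clusters 3, 8 and 10), and -0.22, -0.34 and -0.26 (cluster 1). A limit of 50 cells per tag left fewer than the 19 tags, and in 100% of those the supply and synthetase sums were lower in Diff_MK cells. The synthetase sum was also lower in 100% of tags with the leading tag at 3 times the next. The MK correlation of supply and synthetases was 0.58 at 10 cells per tag. Except where an alternative's own construction changes the cells or genes, the cause was not tested. Of the alternative values, 55 lay within the set bounds and 42 moved beyond them, and in none did a reported class median change sign. No paired analysis was possible because each group has 1 RNA library. With 1 library a group, depth gives narrow counting intervals that say nothing of variation between cultures.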

Other observations

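The 4 eIF2 kinases and 2 regulators of them, not named in the report, had ratios of Diff_MK over MK from 0.824 to 1.02. Eif2ak4, the kinase activated by uncharged tRNA, had 13.3 CPM in Diff_MK cells and 13.0 CPM in MK cells, and Eif2ak3, the kinase of the endoplasmic reticulum, had 6.80 CPM and 6.82 CPM, and the intervals of both ratios included 1. Eif2ak1, the heme-regulated kinase, had 15.1 CPM and 17.3 CPM, and Eif2ak2, the kinase activated by double-stranded RNA, had 38.01 CPM and 40.7 CPM. Gcn1, which helps activate the Eif2ak4 kinase, had 31.0 CPM in Diff_MK cells and 37.5 CPM in MK cells, a ratio of 0.824 (0.787 to 0.863), and Impact, which restrains that kinase, had 11.1 CPM and 13.2 CPM. Atf3, a factor downstream of ATF4, had 36.9 CPM in Diff_MK cells and 28.8 CPM in MK cells, and Cth, which makes cysteine, had 40.5 CPM and 64.4 CPM. These 8 genes were named after their values were seen. Of the other ATF4-linked genes, Cebpb, the partner of ATF4 at the composite element, had 297 CPM and 350.1 CPM, and Eif4ebp1, a translation repressor, had 289 CPM and 246 CPM. Among 9 other amino acid transporters measured, 7 were lower in Diff_MK cells, with Slc38a1, a glutamine carrier, at 18.3 CPM in Diff_MK cells and 32.0 CPM in MK cells.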
